A study of Ovis aries with 16 samples.

Results

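Small non-coding RNA in the thigh muscle of adult female sheep was compared between animals exposed to bisphenol A (BPA) before birth and control animals. All muscle libraries of the series were used, 8 of 16 libraries, each from the vastus lateralis of a different animal, and all 4 deposited tables (miRNA, snoRNA, snRNA and lncRNA). The other 8 libraries are liver of the same animals and enter only where the response of muscle is set against that of liver. All mothers were Suffolk sheep injected daily under the skin between days 30 and 90 of gestation. The BPA group (offspring 910, 918, 977 and 984) was exposed to 0.5 mg BPA per kg per day dissolved in corn oil, which gave about 2.6 ng/ml BPA in the umbilical artery per the labels. The control group (offspring 902, 908, 924 and 928) was exposed to corn oil alone. Muscle of both groups was taken at an age of about 21 months, following a 48 h fast and 24 h after the second of 2 prostaglandin F2α injections given 11 days apart, in the late follicular phase. The question is what exposure in fetal life leaves in the small RNA of adult muscle. BPA is a plastics monomer that binds oestrogen receptors.

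The 4 classes of RNA have different roles. miRNAs pair with messenger RNAs and lower their translation and stability, and in striated muscle a few of them, the myomiRs, make up much of the pool. snoRNAs lie mostly inside introns of host genes, from which they are trimmed after splicing, and they guide chemical modification of ribosomal and spliceosomal RNA: the box C/D class guides methylation and the generally longer H/ACA class guides pseudouridylation. snRNAs are the RNA parts of the spliceosome and are encoded by many near-identical gene copies. lncRNA loci are longer non-coding genes, some of which carry a small RNA inside them. The files name nearly all snoRNAs, snRNAs and lncRNAs by locus number only and give no snoRNA class, so these are described by the length and host gene that RefSeq lists for sheep assembly ARS-UI_Ramb_v3.0.

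Every muscle library was deep in miRNA and lncRNA reads and shallow in snoRNA and snRNA reads, and depth went with treatment. Assigned miRNA reads numbered 471691 to 559705 in the 4 control libraries and 596919 to 1044886 in the 4 BPA libraries. snoRNA reads numbered 2825 to 3872 and 9886 to 15915, snRNA reads 1159 to 1612 and 1135 to 4515, and lncRNA reads 463009 to 579608 and 629329 to 1085241. The control libraries carry the codes 73 to 76 and the BPA libraries 77, 78, 79 and 97, so the order of these codes and treatment cannot be told apart. Values below are deposited normalized counts, scaled within each table, and group values are means ± SD over 4 animals (n = 4). Changes are log2(value + 1) differences, BPA minus control, called log2 fold changes, with the standard error (SE) of the fit. This scale understates the change of low transcripts. A transcript rose or fell where limma's test with Benjamini-Hochberg (BH) adjustment over its table gave an adjusted p below 0.05. The animals are biological replicates, and in whole tissue fewer cells of a type and less RNA per cell cannot be told apart.

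The share of snoRNA in the small RNA of muscle was larger in all 4 BPA animals than in any control animal. Control libraries gave 0.636, 0.692, 0.587 and 0.599 snoRNA reads per 100 miRNA reads, and BPA libraries gave 1.57, 1.30, 1.59 and 2.67. The groups did not overlap, and BPA 984 was the highest. The means were 0.629 ± 0.0471 and 1.78 ± 0.605, a ratio of 2.83, with an exact two-sided permutation p of 0.0286, the smallest that 4 against 4 allows. After BH adjustment over the 5 measures of composition tested, the p was 0.1429, which does not pass. Without BPA 984 the difference in means was 0.858 reads per 100 miRNA reads, against 1.15 with all libraries, and the groups still did not overlap.

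Total snRNA and total lncRNA reads did not separate the groups. snRNA reads per 100 miRNA reads were 0.271 ± 0.0436 in control and 0.382 ± 0.256 in BPA muscle (exact permutation p = 0.6286, adjusted 0.7143). The high BPA mean came from animal 984, at 0.756, while BPA 910 lay below every control at 0.1799. lncRNA reads per 100 miRNA reads were 104 ± 4.17 and 105 ± 5.93 (exact permutation p = 0.7143, also after adjustment). Of the lncRNA reads, however, 92.01 to 93.71% in control and 89.8 to 91.58% in BPA libraries fell in 2 loci, LOC105604459 and LOC105603743. LOC105604459 held 105.5 to 111.9 reads per 100 MIR133 reads over the 8 libraries, so total lncRNA reads largely follow miRNA reads. The ratio of the 2 totals therefore says little about lncRNA as a class. Without the 2 most abundant loci, an alternative chosen after seeing the data, the remaining lncRNA reads were 7.16 ± 0.812 per 100 miRNA reads in control and 9.62 ± 1.32 in BPA muscle. The 4 BPA libraries then lay above the 4 control libraries (exact permutation p = 0.0286, not adjusted). These remaining reads still include loci whose counts are nearly those of a miRNA or snoRNA, such as LOC114118399 (MIR125B) and LOC114116957 (the snoRNA LOC114117067). The part of such reads in the difference was not measured.

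**Figure D1:**
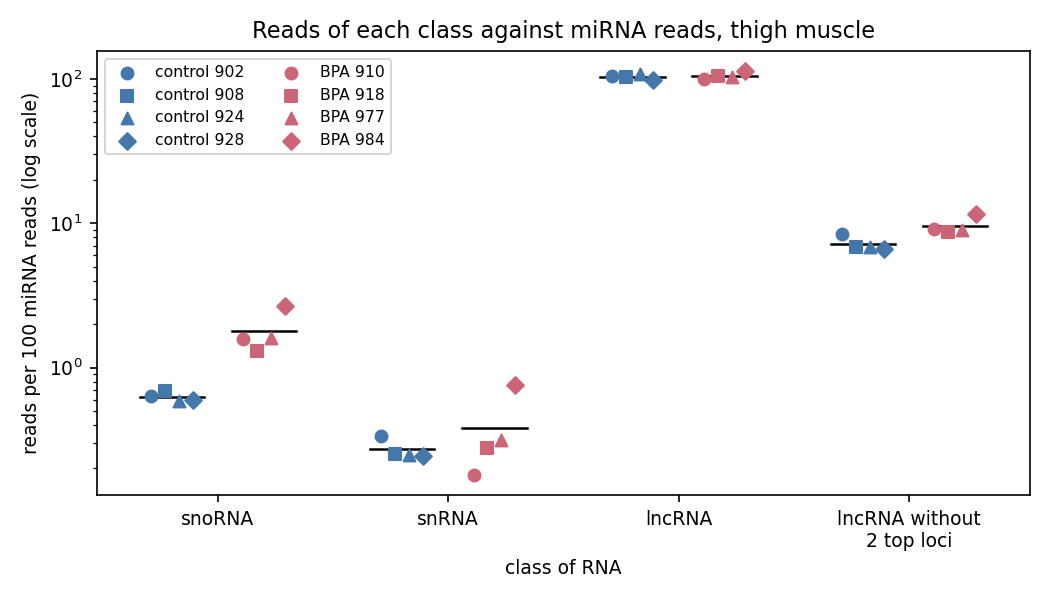
Reads of each RNA class per 100 miRNA reads (log scale) in the 8 muscle libraries, with each library as a marker and group means as black lines. snoRNA reads separate the groups (0.587 to 0.692 in control, 1.30 to 2.67 in BPA), snRNA and total lncRNA reads overlap, and lncRNA reads without the 2 most abundant loci do not overlap.

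Of 162 tested snoRNAs, 43 were higher in BPA muscle (26.5% of those tested) and 10 were lower (6.17%). The rises were large: 27 of the 43 exceeded 4-fold, the log2 fold changes ran from 0.68 to 5.28, and in 41 of the 43 no BPA library overlapped a control library. Over all 162 snoRNAs, 57 (35.2%) had groups that did not overlap. The falls ran from -1.51 to -0.59, and 8 of the 10 did not overlap. Together the 43 snoRNAs held 23.9 to 29.1% of the snoRNA reads in control libraries and 63.8 to 66.2% in BPA libraries, a description of snoRNAs picked by this same comparison. The 43 held 42 distinct read profiles, because LOC114117650 and LOC114117651 carried identical reads in every library. Of the 43, 13 had a control mean below 5 and passed the filter on low values only through the BPA group, and 17 had fewer than 10 reads in every control library.

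The direction of the weaker changes depended on scale, while most of the rises did not. With the miRNA size factors of each library applied to the snoRNA reads, 60 of 166 snoRNAs were higher (36.1%) and 2 were lower, and the median log2 fold change of all tested moved from -0.18 to 0.32. All 43 snoRNAs that rose on the deposited scale rose there too. Of the 10 that fell, 9 were tested there and only 2 fell. With quantile normalization 35 were higher and 50 lower, and 35 of the 43 were among the higher. Leaving out single libraries moved the lower count from 10 to between 4 (without BPA 984) and 14 (without control 908), with 5 without BPA 910 and 6 without control 928, whereas the higher count stayed between 41 and 47. A total of 40 of the 43 rises, but 3 of the 10 falls, were called whichever single library was left out. Counts of tests on the recovered reads were 43 higher and 17 lower with edgeR, and 40 and 10 with DESeq2. With all libraries thinned at random to the depth of the shallowest, an alternative chosen after seeing the data, 32 were higher and 14 lower of 98 tested.

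The rises with the smallest p were in short snoRNAs inside protein-coding genes and unnamed loci. LOC114118129, an 80 nt snoRNA inside SF3B3, a splicing factor gene, stood at 11.3, 9.70, 12.6 and 14.7 in control and at 451, 409, 325 and 305 in BPA libraries. The groups lay far apart, and the control values rest on 7 to 10 reads each. Its log2 fold change was 4.83 ± 0.22 (SE; limma adjusted p = 2.27e-21). LOC114114232, a 75 nt snoRNA inside ATP5F1B, which encodes a subunit of mitochondrial ATP synthase, rested on more reads, 31 to 38 in control and 647 to 1177 in BPA libraries. Its values were 54.9, 37.6, 58.4 and 55.8 against 566, 596, 480 and 625 (log2 fold change 3.44 ± 0.20, limma adjusted p = 2.98e-18). It was the most abundant of the snoRNAs plotted by library.

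LOC114110519, a 66 nt snoRNA inside C23H18orf32, was nearly unread in control muscle. It held 4, 2, 3 and 1 reads in control and 197, 243, 227 and 276 reads in BPA libraries, and its normalized counts were 3.77 ± 2.26 and 153 ± 12.7. The 4 BPA values spanned only 145 to 172. LOC114113431, an 81 nt snoRNA inside UBAP2, held 3 reads in all 4 control libraries together and 480 in the 4 BPA libraries. The ratio of these reads over depth was 71.1 (95% exact counting interval 24.2 to 346), which covers counting error only. LOC114110519 and LOC114113431 both had a control mean below 5, so they passed the filter on low values only through the BPA group. LOC114117064, a 72 nt snoRNA inside the cation channel gene TRPV2, rose from 10.4 ± 2.50 to 158 ± 27.5, with 6 to 8 reads per control library and 190 to 312 per BPA library.

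**Figure D2:**
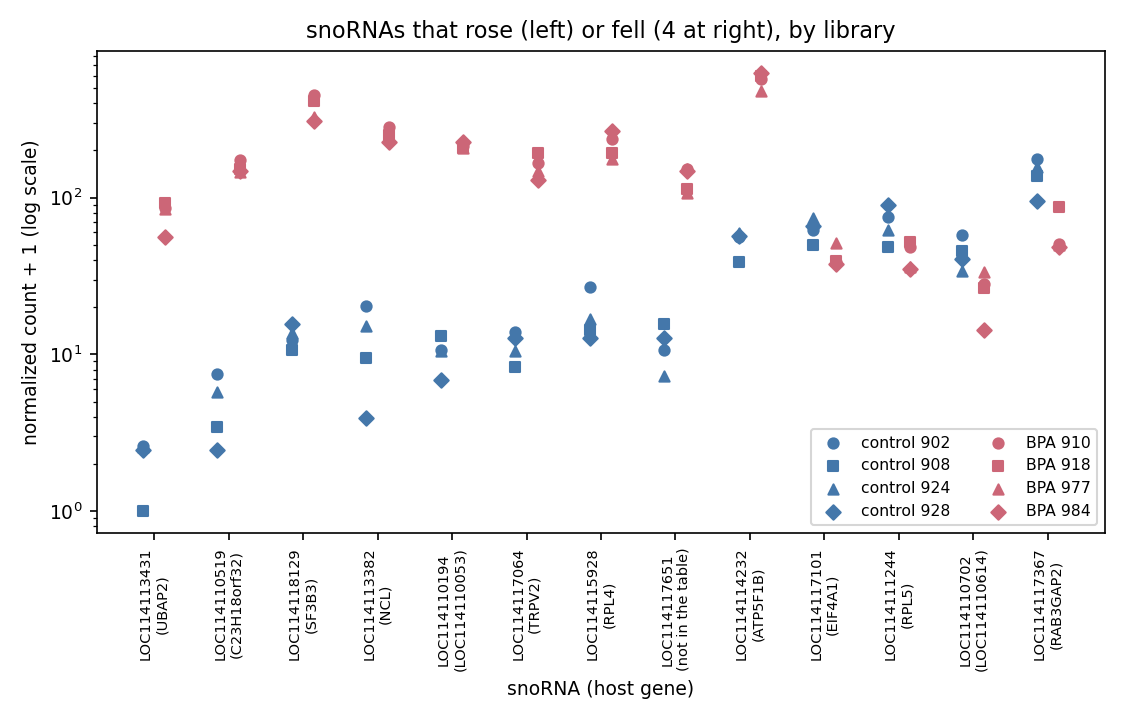
Normalized counts plus 1 (log scale) of 13 named snoRNAs in each muscle library, the 9 that rose at left and the 4 that fell at right, with the host gene in parentheses. For the 9 that rose no BPA library overlaps a control library, whereas LOC114117101 and LOC114111244 at right overlap.

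The most abundant snoRNA of muscle rose by less. LOC114117067, 70 nt, had a mean of 575 in control and 1143 in BPA muscle (log2 fold change 1.01 with a limma adjusted p of 2.70e-05). Its groups did not overlap. The next most abundant that did not pass were LOC114111353, inside the translation factor gene EIF4G1, and LOC114117661. LOC114111353 stood at 264 ± 32.7 and 269 ± 48.7 (log2 fold change 0.02, 95% interval -0.38 to 0.41), and LOC114117661 at 213 ± 59.7 and 211 ± 46.8 (0.01, interval -0.42 to 0.44). Their groups overlapped. Under quantile normalization both were lower in BPA muscle.

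Among the snoRNAs that fell, LOC114117367 was the most abundant, a 132 nt snoRNA inside RAB3GAP2, a regulator of Rab GTPases. Its values were 174, 136, 156 and 93.9 in control and 49.8, 85.8, 48.6 and 47.3 in BPA libraries (log2 fold change -1.27 ± 0.23, limma adjusted p = 1.49e-05). The lowest control lay just above the highest BPA library, 918. With miRNA size factors its log2 fold change was -0.79. The 83 nt LOC114110702 (43.5 ± 9.90 to 24.6 ± 8.14), the 96 nt LOC114111244 inside RPL5 (67.8 ± 17.5 to 41.9 ± 8.64) and the 141 nt LOC114117101 inside EIF4A1 (61.8 ± 10.0 to 40.8 ± 6.52) also fell. All 3 lost their calls with miRNA size factors, at log2 fold changes of -0.37, -0.19 and -0.11, and also when control 902 or BPA 984 was left out. LOC114111244 lost it without control 928 or BPA 977 as well, and LOC114117101 without any single library except control 908 or BPA 977. The other 6 that fell had control means between 7.93 and 11.5, and LOC114114221, LOC114115929 and LOC114110204, all 126 nt, held the same reads in every muscle library except BPA 984, so they cannot be told apart and are not separate observations.

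The rises were found in snoRNAs of 63 to 89 nt. Of 83 tested snoRNAs up to 90 nt, 41 rose and 1 fell, with a median log2 fold change of 0.81, and of 68 longer ones, 0 rose and 9 fell, with a median of -0.46. The median over all 162 was -0.18. In finer bands, 14 of 22 snoRNAs up to 70 nt rose, 22 of 41 of 71 to 80 nt, 5 of 20 of 81 to 90 nt, and 0 of the 11, 12 and 45 snoRNAs in the bands of 91 to 110, over 110 to 130 and over 130 nt. A further 11 tested snoRNAs had no length in the gene table, and 2 of them rose. With miRNA size factors the same bands held 16, 27, 8, 3, 0 and 0 higher snoRNAs, and the median in the band over 130 nt was -0.10.

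**Figure D3:**
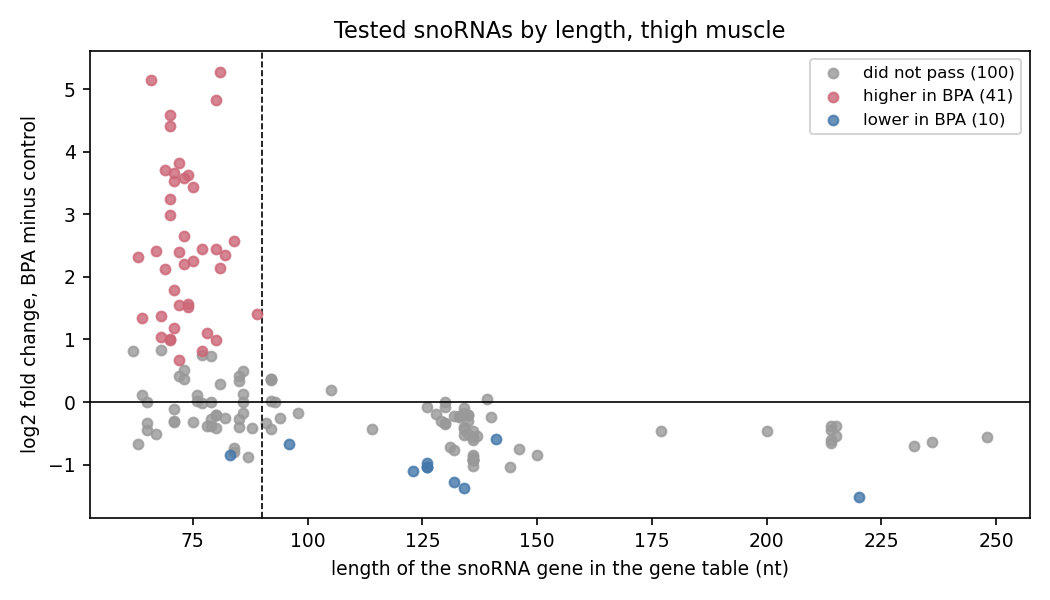
log2 fold change (BPA minus control) of the 151 tested snoRNAs with a known length against gene length in nucleotides, coloured by whether they passed the test. The 41 that rose lie between 63 and 89 nt, left of the dashed line at 90 nt, and 9 of the 10 that fell lie right of it.

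Read against miRNA reads, without any scaling of the snoRNA table, the short bands carried the gain. snoRNAs up to 70 nt gave 1.46, 1.70, 1.13 and 1.24 reads per 1000 miRNA reads in control and 5.47, 4.64, 5.59 and 9.47 in BPA libraries, a ratio of means of 4.55. Those of 71 to 80 nt went from 1.43 ± 0.124 to 6.55 ± 2.29, a ratio of 4.60, and those of 81 to 90 nt from 0.576 ± 0.0310 to 1.13 ± 0.285. None of these 3 bands overlapped between groups. snoRNAs over 130 nt gave 1.44 ± 0.102 and 1.5 ± 0.383, a ratio of 1.04, and the bands between had ratios of 1.43 and 1.11, all with overlap. The sizes of the sequenced fragments were not analysed here, so whether full-length snoRNA or a piece of it was read was not tested.

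Many snoRNAs lie in genes that serve ribosomes and the nucleolus, and both host groups contained rises and snoRNAs that did not pass. Of 17 tested snoRNAs inside genes of nucleolar proteins, 9 rose and 0 fell. These included a snoRNA of NCL, the gene of nucleolin, and snoRNAs of GNL3, PPAN and the box C/D core protein genes NOP56 and NOP58. Of 30 inside ribosomal protein genes, 9 rose and 2 fell, among them risers in RPL4, RPS12, RPS20, RPL7A and RPL13A. Of 10 inside translation factor genes 1 rose and 1 fell, of 48 inside other named genes 9 rose and 3 fell, and of 24 inside loci known by number 10 rose and 2 fell. Of 22 with no host gene in the table, 3 rose and 2 fell. Within each host group all the risers with a known length were up to 90 nt: 9 of 19 such snoRNAs rose in ribosomal protein genes against 0 of 11 longer ones, and 9 of 15 in nucleolar protein genes against 0 of 2. Over all tested snoRNAs up to 90 nt the count was 41 of 83, and the shares in these host groups lie near it.

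snoRNAs cut from the same host transcript did not always share a call, and differences between members of a host were not tested. In 23 host genes with at least 2 tested snoRNAs, all members rose in 3 genes (C23H18orf32, GNL3 and PPAN), some rose in 13, and none rose in 7. Of the risers in these genes, 7 had a control mean below 5 and were tested only because of their BPA values, among them both PPAN members and 1 of the 2 in C23H18orf32. In GNL3, which encodes the nucleolar GTPase nucleostemin, the 77 nt LOC114109492 went from 22.8 ± 7.17 to 125.3 ± 13.6 and the 82 nt LOC114109448 from 6.87 ± 3.90 to 35.8 ± 4.14. In NCL the 70 nt LOC114113382 went from 11.3 ± 7.11 to 249 ± 24.7, while the 80 nt LOC114113388 stood at 8.89 ± 3.86 and 6.10 ± 1.25 (limma adjusted p = 0.3878). In RPL7A, a gene of the large ribosomal subunit, the 75 nt LOC114114212 went from 7.92 ± 3.86 to 38.3 ± 5.02, whereas the 73 nt LOC114114211 (31.2 ± 7.82 and 44.2 ± 5.39) and LOC114114215, also 75 nt (42.7 ± 12.9 and 33.1 ± 6.04), did not pass. LOC114114211 passed with miRNA size factors (log2 fold change 0.99, limma adjusted p = 0.0081), and LOC114114215 was lower in BPA muscle under quantile normalization (-1.19, limma adjusted p = 0.0021). In both genes the member that rose and those that did not pass had low control means, from 7.92 to 42.7.

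In 7 host genes the tested snoRNAs lay on both sides of 90 nt, and in all 7 every shorter snoRNA had a higher log2 fold change than every longer one. In 2 of the 7, EIF4A2 and LOC101102543, the short riser was tested only because of its BPA values, and in 2 others, EEF1B2 and RPL3, no member passed. LOC114110053 is also 1 of the 7, but the reads of its only longer member cannot be placed at that locus. The limit of 90 nt lies just above the longest riser, at 89 nt. These snoRNAs are among those counted by length above, so the 7 hosts add no separate support. In EIF4A2, a translation initiation factor gene, the 69 nt LOC114111381 went from 4.06 ± 2.81 to 59.7 ± 12.5, while the 132 nt LOC114111253 (16.4 ± 8.92 and 12.5 ± 1.17) and the 177 nt LOC114111371 (6.95 ± 3.29 and 4.64 ± 1.49) did not pass. In RPL4, of the large ribosomal subunit, the 71 nt LOC114115928 stood at 25.8, 13.3, 15.8 and 11.7 in control and 236, 190, 174 and 265 in BPA libraries. The 98 nt LOC114115930 of the same gene stood at 21.3 ± 2.46 and 18.8 ± 3.61 (log2 fold change -0.18). The host locus LOC114110053 carried 5 tested snoRNAs of 68 to 74 nt, of which 4 rose, and the 126 nt LOC114110204, which stood at 11.1 ± 2.09 and 5.17 ± 1.26 but cannot be told apart from LOC114114221 and LOC114115929, so its reads cannot be placed at this locus. Among its short members the log2 fold changes ranged from 0.68 to 4.41: the 72 nt LOC114110199 was at the low end, and the 70 nt LOC114110194 (9.29 ± 2.58 to 213 ± 7.71) was at the high end. The fifth, LOC114110203, was at 0.83 and did not pass (limma adjusted p = 0.0597).

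**Figure D4:**
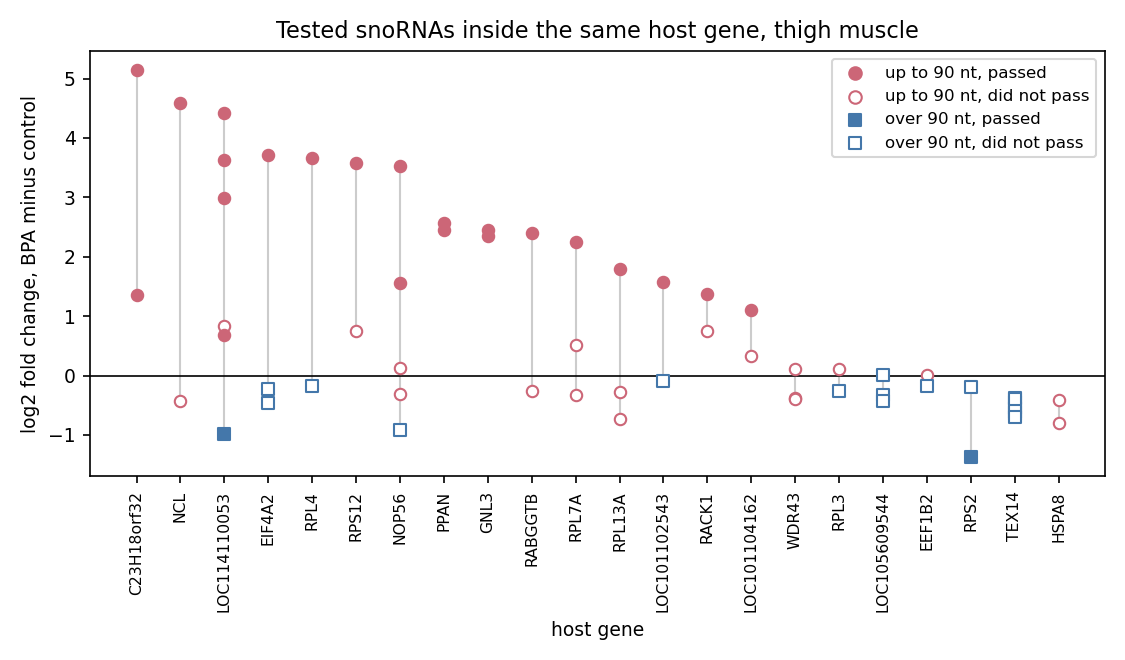
log2 fold changes (BPA minus control) of tested snoRNAs that share a host gene, with circles for snoRNAs up to 90 nt and squares for longer ones, filled where they passed the test. Of the 22 hosts drawn, 12 hold both risers and snoRNAs that did not rise, and in the 7 hosts with both lengths the circles lie above the squares.

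Imprinted regions also held snoRNAs that rose. SNRPN, a host gene of imprinted snoRNAs, carried LOC114109250 (74 nt), which rose from 11.3 to 33.8 (log2 fold change 1.52). LOC105606646, a locus of the lncRNA table that the gene table lists as protein coding and that spans most miRNAs of the DLK1-DIO3 region, held LOC114109215 (73 nt), which rose from 4.11 to 31.0 (a log2 fold change of 2.65 with a limma adjusted p of 2.70e-08), while the locus itself did not pass (log2 fold change 0.43, adjusted p = 0.4262). LOC114109215 had a control mean below 5, so it passed the filter on low values only through the BPA group. These 2 snoRNAs were picked for their location after their values were seen, and the other snoRNAs of these regions are not described.

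No miRNA passed: 0 of 70 tested (0%) with limma, 0 with edgeR and 0 with DESeq2, with 3 at an unadjusted limma p below 0.05. The median log2 fold change was 0.01. The 95% intervals, not adjusted for the number of tests, had a median half-width of 0.46 and a largest of 0.995. For the 31 miRNAs with a mean of at least 1000 the median half-width was 0.30. The median snoRNA rise of 2.35 exceeded every half-width. The smallest snoRNA changes called, 0.68 and -0.59, did not, and MIR495 at 0.74 did not pass. MIR133, the striated muscle miRNA that represses smooth muscle and proliferation genes, dominated the pool. Its values were 335941, 355695, 373488 and 318172 in control and 247370, 370470, 326389 and 244661 in BPA libraries (log2 fold change -0.24, 95% interval -0.59 to 0.11). The groups overlapped, and BPA 910 and 984 were the lowest of the 8. It made up 54.8 ± 2.21% of miRNA reads in control and 50.6 ± 6.33% in BPA muscle (exact permutation p = 0.3429, adjusted 0.5714), and the 3 most abundant miRNAs together 66.4 ± 1.86% and 62.9 ± 4.54% (exact permutation p = 0.2571, adjusted 0.5714). It was the only myomiR among the names of the table, and as a marker of striated muscle it was the most abundant miRNA in all 8 libraries.

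The miRNAs with the smallest unadjusted p differed by small amounts. MIR125B, a regulator of muscle differentiation, stood at 12162, 13311, 12822 and 11270 in control and at 15366, 14633, 13652 and 19328 in BPA libraries. The groups did not overlap, and the log2 fold change was 0.34 (95% interval 0.05 to 0.62, limma adjusted p = 0.7060). MIR26B was at 7618 ± 530 and 6370 ± 524, also without overlap (log2 fold change -0.26, interval -0.51 to -0.01), and its relative MIR26A at 43772 ± 3586 and 41233 ± 3159 (-0.09). MIR495, of the DLK1-DIO3 region, was at 13.1 ± 6.44 and 20.8 ± 1.57 (0.74, interval 0.01 to 1.46). MIR29A, which targets collagen messages, was at 3122 ± 270 and 2609 ± 243 (-0.26, limma adjusted p = 0.7060) and did not overlap. MIR181A-1 was at 5165 ± 96.2 and 6009 ± 662 without overlap (0.21, interval -0.04 to 0.47). Over all 70 tested miRNAs, 5 had groups that did not overlap. These include MIR181A-2 (0.20), which held nearly the reads of MIR181A-1 (4237 and 4166 in control 902), so the 2 copies are not separate observations.

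No list of related miRNAs had a member that passed. The 7 let-7 miRNAs, regulators of growth and glucose handling, had log2 fold changes of -0.15 to 0.15 (median 0.06), and the 4 miR-30 members -0.10 to 0.12 (median 0.02). The 3 tested members of the miR-17/92 and miR-25 list, MIR17, MIR106B and MIR25, had a median of 0.02. The 4 of the list of miR-10, MIR99A and MIR125B relatives had a median of 0.05 and ran from MIR10B at -0.31 to MIR125B at 0.34. MIR22, MIR191 and MIR221, listed for links to oestrogen signalling, were at 0.11, 0.12 and 0.01. Of 48 miRNAs of the imprinted DLK1-DIO3 region in the table, home of the callipyge muscle trait in sheep, 19 were tested, 12 of them above 0 and 7 below (median 0.22), and all intervals but that of MIR495 included 0. The most abundant of these, MIR127, stood at 1228 ± 127 and 1498 ± 162 (log2 fold change 0.29, interval -0.01 to 0.58).

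**Figure D5:**
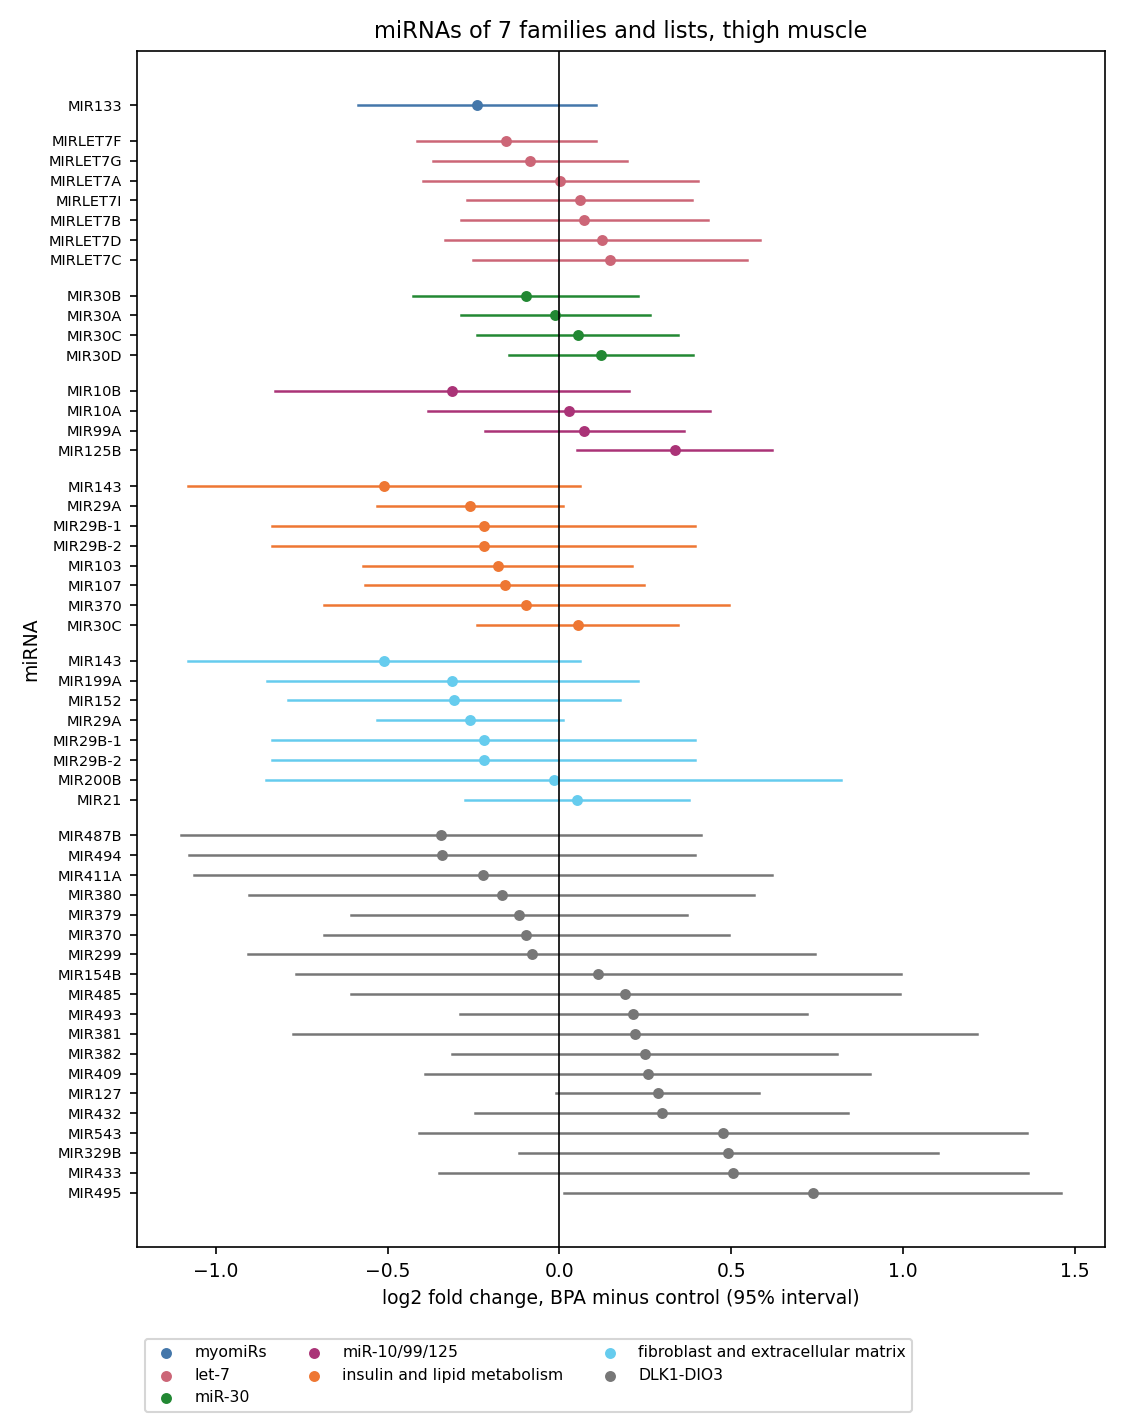
log2 fold change (BPA minus control) with its 95% interval for tested miRNAs of 7 families and lists in thigh muscle, where a miRNA on several lists is drawn under each. MIR125B (0.34) and MIR495 (0.74) are the only intervals that leave out 0, and neither passed after adjustment.

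The lists on metabolism and on connective tissue leaned below 0, without a called member. The 8 tested miRNAs of the insulin and lipid list had a median of -0.20, with 7 below 0, and the 8 of the fibroblast and extracellular matrix list a median of -0.24, with 7 below 0. They share MIR143, MIR29A, MIR29B-1 and MIR29B-2, and the last pair carried identical reads. MIR143, a miRNA of smooth muscle and fibroblasts, was at 14605, 15503, 11326 and 22778 in control and 13862, 13117, 13811 and 5653 in BPA libraries (log2 fold change -0.51, interval -1.08 to 0.06). The BPA values other than 984 lay within the control range. MIR199A, of the same cell types, was also lowest in BPA 984, at 2345 against 4581 to 6235 in control and 4523 to 7384 in the other BPA libraries. The insulin-linked MIR103 and MIR107 were at -0.18 and -0.16, and MIR30C at 0.05.

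Marker miRNAs of other cell types had overlapping ranges in the groups. MIR150, of leukocytes, stood at 1368 to 2028 in control and 1485 to 2760 in BPA libraries, and MIR221, of endothelium, at 296 to 390 and 281 to 467. The epithelial MIR200A, MIR200B and MIR200C summed to 39.9 to 94.4 and 36.6 to 103, and MIR148A with MIR194, of liver, to 1311 to 2028 and 1372 to 1922. MIR143 with MIR199A summed to 15907 to 28471 and 7999 to 21246, where 984 gave the lowest sum. Of each list only these members were in the table, 1 of 4, 1 of 3, 3 of 6, 2 of 4 and 2 of 4, and none of the 4 erythroid miRNAs was. The part of cell makeup in the snoRNA changes was not tested beyond these values.

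No snRNA passed: 0 of 34 tested (0%) with limma, edgeR and DESeq2, and 0 at an unadjusted limma p below 0.05. The 34 genes gave 31 distinct read profiles, and near-identical copies share reads. The 15 genes of 163 to 165 nt had log2 fold changes of -0.20 to 0.58, with 14 above 0, and the 6 genes of 191 nt ran from -0.51 to -0.24, all below 0. The 4 genes of 133 to 141 nt were all below 0, and of 9 without a length 7 were above 0 and 2 below. Many genes of a length had nearly the same reads, so these signs are not separate observations. LOC114117060, of 164 nt, was at 120, 113, 92.5 and 93.0 in control and 112, 153, 100 and 286 in BPA libraries, with BPA 984 far above the rest. LOC114117115, of 191 nt, was at 80.98, 83.59, 98.9 and 111 in control and 72.5, 54.0, 123 and 38.1 in BPA libraries, with 984 at the low end and 977 at the high end. Without BPA 977, 8 of 35 snRNAs were called, 1 higher and 7 lower, so the count of 0 rests on that library.

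Of 151 tested lncRNA loci, 6 were higher (3.97%) and 2 lower (1.32%) in BPA muscle. The largest rise was in LOC106990385, with 51, 49, 43 and 38 reads in control and 2094, 3850, 2901 and 3255 reads in BPA libraries. Its normalized counts were 68.1, 53.5, 59.4 and 54.6 against 1781, 2373, 2057 and 2428, without overlap (log2 fold change 5.17 ± 0.18 SE, limma adjusted p = 3.92e-09). LOC105616344 rose from 18.9 ± 1.38 to 183 ± 16.7 (a log2 fold change of 3.21 ± 0.20 with a limma adjusted p of 5.60e-07), and LOC114117239 from 71.5 ± 5.20 to 272 ± 90.2 (1.86 ± 0.24, adjusted p = 4.42e-04). LOC114108991 rose from 10.5 ± 3.61 to 38.4 ± 8.73 (1.80), and its call was lost with reads thinned to the shallowest library (limma adjusted p = 0.0636). Over all 19 alternatives its smallest adjusted p was 9.15e-05, with DESeq2. None of these 4 loci was found in the gene table used here, so what they hold or neighbour is not described.

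The remaining 2 raised loci carry snoRNAs. LOC114116957 rose from 513 ± 102 to 1284 ± 296 (1.32 on the log2 scale, limma adjusted p = 0.0022), a call lost under quantile normalization (0.80, limma adjusted p = 0.1068). Over all 19 alternatives its smallest adjusted p was 8.65e-06, with DESeq2. The nested snoRNA LOC114117067 accounts for 99.9% of its reads in control and 100% in BPA libraries, for example 388 of 389 reads in control 902. LOC101116687 rose from 24.1 ± 7.96 to 164 ± 19.4 (2.75, adjusted p = 1.99e-05), and the snoRNAs LOC114109764 and LOC114109765 inside it carried 53.4% as many reads in control and 50.6% in BPA muscle. The counts of LOC114116957 are thus nearly those of its snoRNA, while for LOC101116687 the tables do not show which reads are shared. Of 28 tested loci with a nested small RNA gene 2 rose, of 43 without one 0 rose, and of 80 that the gene table lacks, 4 rose and 2 fell.

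LOC114114830 fell from 40.0, 33.9, 34.6 and 34.5 in control to 13.6, 13.6, 19.1 and 13.4 in BPA libraries (log2 fold change -1.22, limma adjusted p = 0.0058), on 24 to 31 and 16 to 27 reads. Its call was lost with no filter on low values (limma adjusted p = 0.5067). Over all 19 alternatives its smallest adjusted p was 0.0012, with DESeq2. LOC114112870 fell from 457, 394, 348 and 395 to 157, 146, 313 and 174 (-1.07, limma adjusted p = 0.0288). Its highest BPA value, 313 in 977, lay close to the lowest control, 348, and the call was lost in 11 of 19 alternatives, including leaving out any single library except BPA 977.

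Of the 3 most abundant lncRNA loci, LOC105604459 and LOC114118399 each held close to the number of reads of a known miRNA. LOC105604459, inside MIB1, held 109.5 to 111 reads per 100 MIR133 reads in control and 105.5 to 111.9 in BPA libraries. The gene table lists no small RNA inside it, and which of its reads are shared with MIR133 is not shown. Its log2 fold change was -0.42 (95% interval -0.82 to -0.02, limma adjusted p = 0.2843). Over 19 alternatives it ran from -0.58 to -0.18, and the smallest limma adjusted p was 2.09e-05, which passes. LOC114118399, the next most abundant after LOC105603743, held the same number of reads as MIR125B in each control library and 1 or 2 more in each BPA library, for example 18473 and 18471 in BPA 910. Its log2 fold change in the lncRNA table was 0.16 and that of MIR125B in the miRNA table was 0.34, since the tables were scaled separately. LOC105603743 held 36.0 ± 2.15 reads per 100 miRNA reads in control and 39.7 ± 11.3 in BPA muscle, with BPA 984 at 56.0.

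The response of muscle was set against that of liver of the same animals by the treatment by tissue difference, in a limma fit over all 16 libraries. Control libraries of liver and of muscle enter this comparison, and each tissue was scaled alone. Liver depth also went with treatment: miRNA reads numbered 94393 to 240815 in control and 578150 to 1383538 in BPA livers. snRNA reads ran the other way, at 29981 to 58486 in control and 877 to 3865 in BPA livers. The treatment by tissue difference passed for 2 of 76 miRNAs (2.63%), 90 of 198 snoRNAs (45.5%), 34 of 42 snRNAs (81%) and 42 of 146 lncRNA loci (28.8%). For miRNAs these were MIR200B (-2.09 ± 0.53 SE, limma adjusted p = 0.0344) and MIR30B (1.77 ± 0.40, adjusted p = 0.0215), and with the animal as a replicate block 0 passed. Of the 43 snoRNAs that rose in muscle, 14 passed towards muscle, 2 towards liver, and 27 did not pass for a difference between tissues. Of the 10 that fell, 7 were lower relative to liver. LOC114118129 was 2.98 ± 0.90 log2 units higher in this difference (limma adjusted p = 0.0138), and its liver values were 35.4 ± 28.5 in control and 152 ± 134 in BPA animals. With the miRNA size factors 163 of 219 snoRNAs passed, all towards muscle, against 50 towards muscle and 40 towards liver on the deposited scale.

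For lncRNAs, the difference between tissues passed for 4 of the 6 raised loci. LOC106990385, LOC105616344 and LOC101116687 passed towards muscle, also with the replicate block. For LOC106990385 and LOC105616344 the difference (5.62 and 3.91) exceeded the rise in muscle (5.17 and 3.21). On the log2 scale neither rose in liver. For LOC101116687 the difference (2.74) was nearly the rise in muscle (2.75). LOC106990385 differed most (5.62 ± 1.67 SE, limma adjusted p = 0.0195), with liver values of 1193 ± 781 in control and 1716 ± 1937 in BPA animals. LOC114117239 was at 0 ± 0 in control livers and 0.291 ± 0.398 in BPA livers, so its reads were found almost only in muscle, and its difference (1.54, limma adjusted p = 0.0188, and 0.0549 with the replicate block) restates the rise in muscle. Among snRNAs, the 191 nt LOC114117115 had a difference of -5.57 ± 0.68 (limma adjusted p = 2.02e-06), with 13.4 ± 14.9 and 355 ± 57.9 in control and BPA livers against 93.6 ± 14.0 and 71.8 ± 36.7 in muscle. Among snRNAs, 1 read counted as 0.19 to 0.33 in control livers and as 1.99 to 7.23 in BPA livers. The liver values of LOC114117115 thus depend on this scaling. With miRNA size factors all 34 called snRNA differences lay towards muscle, against 18 and 16 on the deposited scale.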

How the data were processed

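The values used are the normalized counts that the authors deposited in 4 tables, a depth-scaled signal per transcript and library. The submitters' processing notes list STAR 2.6.0c, cutadapt 3.2 and featureCounts 1.6.1, with no role for each. For the genome build, annotation, strand setting and normalization, nothing is given in the sources used here. Per the labels' protocols, libraries were made with a NEBNext small RNA kit from total RNA. All values of a library (100%) were integer multiples of its smallest step, within 0.001, so reads could be recovered. 0 columns belonged to no sample.

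Transcripts whose mean value in a fit reached 5 were tested with limma 3.58.1 in R 4.3.3 (log2(value + 1), mean-variance trend, two-sided), BH adjusted within each table at 0.05. Muscle fits used the 8 muscle libraries, and tissue differences used all 16. edgeR 4.0.16 and DESeq2 1.42.0 on recovered reads were alternatives, with other pseudocounts (0.5 and 5), filters (none, 20), scalings, a joint adjustment and leaving out each library. Composition was tested with exact permutation tests. The scripts were tested on simulated data. Names, lengths and host genes come from RefSeq (ARS-UI_Ramb_v3.0), and no coordinates or sequences are given. Intervals from reads cover counting error only, since the reads carry no molecular identifiers.

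Named transcripts are, for miRNAs, the 10 most abundant, the 5 with the smallest p in each direction and all tested list members. For snoRNAs they are the 10 that rose and up to 6 that fell with the smallest p (mean of at least 10) and the 3 most abundant that did not pass. For snRNAs they are the 3 with the smallest p in each direction and the 3 most abundant, and for lncRNAs the called loci and the 3 most abundant. LOC114117067 and snoRNAs named by host gene, location or length were chosen after their values were seen. The snoRNAs of 1 host gene enter the counts, but their values are not reported here. Members and lists were chosen with earlier results of these data known. Animal numbers pair liver with muscle libraries. Deviations of the pairs from their group means correlated by -0.24 to 0.133 over 360 transcripts. Muscle libraries of 1 group all differed by more than sampling noise (chi-square at least 9.06 times its degrees of freedom).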

Additional observations from a re-analysis of the deposited data

Results flagged for a closer look

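Of 198 groups of 4 libraries examined, 19 held a library farther from the other 3 than Dixon's 95% limit allows, where chance gives about 1 in 20. BPA 984 was that library for 5 miRNAs: MIRLET7A (46393), MIRLET7G (28840) and MIRLET7D (5460) were high there, and MIR143 (5653) and MIR103 (301.9) were low. Control 902 stood apart in MIRLET7F (15463), MIR194 (186.2), LOC114114830 (40.04) and the snRNA reads per 100 miRNA reads (0.336). Control 928 stood apart in MIR494 (15.51), MIRLET7I (9843) and LOC101116687 (35.94), control 924 in MIR99A (20964), and control 908 in LOC114114232 (37.57) and LOC114113431 (0). BPA 977 was the high library of LOC114117101 (50.47), LOC114114830 (19.15) and LOC114112870 (313.4), and BPA 918 of LOC114117367 (85.81). For the last 4 values the departing BPA library lies nearest to the controls.

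For 27 named transcripts the BPA effect passed limma's test for a difference between muscle and liver, given here as muscle minus liver in log2 units. Among miRNAs these were MIR200B (-2.085) and MIR30B (1.775). Among snoRNAs that rose in muscle they were LOC114118129 (2.981), LOC114110194 (4.372), LOC114110519 (4.688), LOC114117064 (2.877), LOC114115928 (3.366), LOC114113382 (3.845) and LOC114113431 (4.386). Among the other snoRNAs they were LOC114117367 (-3.094), LOC114111244 (-2.31), LOC114117101 (-1.51), LOC114111353 (-2.833), LOC114117661 (-2.328) and LOC114117663 (-3.055). Among snRNAs they were LOC114117093 (2.629), LOC114117060 (2.453) and LOC114111388 (1.275), of 163 to 165 nt, and LOC114117120 (-5.825), LOC114117115 (-5.572), LOC114117117 (-5.576) and LOC114110196 (-5.047), of 191 nt. Among lncRNA loci they were LOC106990385 (5.624), LOC105616344 (3.914), LOC101116687 (2.742), LOC114117239 (1.54) and LOC114118399 (-2.037). Each tissue was scaled alone, and the part of that scaling in these differences is given with the alternatives.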

How the results depend on the processing

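No paired analysis was possible for BPA against control within muscle, because the groups share no animal number. For the treatment by tissue difference, the fit with the animal as a replicate block gave 0 miRNAs against 2, and changed the other 3 counts by less than 1.5 times (88, 26 and 31 against 90, 34 and 42). Leaving out each animal gave 0 to 9 miRNAs and 20 to 46 lncRNA loci, with 20 without 977 and 22 without 928. With miRNA size factors 163 snoRNAs passed that difference, and it turned to 0.3915 for LOC114111244, 1.187 for LOC114117101, 0.3966 for LOC114117661, 0.4922 for LOC114117120, 0.8007 for LOC114117115, 0.7972 for LOC114117117 and 1.375 for LOC114110196.

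Within muscle, quantile normalization called 85 snoRNAs against 53 and turned LOC114111353 to -0.8102 and LOC114117661 to -1.204. Leaving out single libraries gave 0 to 8 snRNAs, with 8 without BPA 977, and 0 miRNAs each time. Without the 2 most abundant loci the difference in lncRNA reads per 100 miRNA reads was 2.46 against 1.40. Over single transcripts and all alternatives, 1981 values stayed on their side of the threshold, 81 lost and 17 gained a call, and 9 reversed. Among the 1981 are 91 muscle values and 9 tissue differences that passed in neither setting and changed sign. The cause of these changes was not tested. With 3 animals against 4 an exact test cannot go below 0.0571, so the composition measures have no test there. Depth limits the snoRNA rises, since 17 of the 43 that rose had fewer than 10 reads in every control library.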
